A study of Mus musculus with 40 samples.

Results

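The 10 apolipoprotein genes described here were followed in mouse liver after 90 days of GenX: Apoa1, Apoa2, Apoa4, Apoa5, Apob, Apoc1, Apoc2, Apoc3, Apoe and Apom. They were picked by name, as the rows of the deposited probe table that carry one of the 10 symbols, and all 10 were found among 21448 gene symbols. They are read by 17 probes, and the probe with the most reads stands for each gene. The livers came from male and female Crl:CD1(ICR) mice, an outbred stock, all wildtype, gavaged every day for 90 days, with 5 mice in each of 8 groups. The daily dose of GenX per kg of body weight was 0.1 mg, 0.5 mg or 5 mg, and the controls (0 mg/kg) received deionized water. GenX is an ammonium salt of a short-chain perfluorinated ether acid. Each mouse gave 1 section of formalin-fixed, paraffin-embedded liver, and TempO-Seq, in which a pair of oligonucleotides is ligated on its target RNA and sequenced, counted the reads of each probe. The mice were separate animals, the library of mouse 355 (female, 0.5 mg/kg) was left out for its low depth of 6711981 reads, and the other 39 libraries held 10341341 to 15562253 reads.

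Apolipoproteins are the protein coats of the particles that carry lipid in blood, and the liver makes most of them. Apob is the backbone of very-low-density lipoprotein and Apoa1 that of high-density lipoprotein, while the smaller exchangeable members move between particles and steer lipases and receptors: Apoc2 activates lipoprotein lipase, Apoc3 restrains it, Apoa5 favors the clearance of triglyceride, and Apoe is the ligand that receptors on hepatocytes recognize. Fibrates, which activate the receptor PPARα, are known to lower several of these messengers in rodent liver.

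At 5 mg/kg, 6 of the 10 genes fell in males and 3 of 10 fell in females, Apoa4 the most in both sexes, while Apoe, Apoc1 and Apoc2 were called in no comparison. The call was an edgeR adjusted p below 0.1. In males at 5 mg/kg, 9.35% of the 12412 genes tested were called, 3.75% lower, and 3.38% lay lower without overlap between treated and control mice, as did all 6 members. In females at this dose 4.09% were called, 2.00% lower, and 1.58% lay lower without overlap, as did 2 members, Apoa4 and Apoc3. Apoa1, Apoa5 and Apoc3 had been named by the study as changed in both sexes at 5 mg/kg in these same samples, so their falls are not independent evidence. Here Apoa5 was called in males and not in females. Levels are reads of a probe scaled to the library (counts per 1e6, CPM). Because probes differ in efficiency, a level is comparable between mice for 1 gene and not between genes. The histogram of probe reads has a lowest peak, at 21.2 to 48.4 reads depending on the library, and taking it as 1 captured molecule gives 283852 to 642361 molecules in each library. In that unit the median over the 39 libraries was 7340 for Apoa1 but 53.1 for Apoa4, 23.9 for Apoc2 and 7.92 for Apom. If that assumption holds, these last values limit their precision, which was not tested.

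The genes lie in 2 clusters and at 3 other places (GRCm38, GENCODE M21). Apoa1 (chr9:46228580-46230466), Apoc3 (chr9:46232933-46235636), Apoa4 (chr9:46240696-46243459) and Apoa5 (chr9:46268633-46271919) share 43.3 kb of chromosome 9. Apoe (chr7:19696109-19699188), Apoc1 (chr7:19689481-19692660) and Apoc2 (chr7:19671579-19677941) share 27.6 kb of chromosome 7 with Apoc4. Apoa2 lies at chr1:171225054-171226379, Apob at chr12:7977648-8016835 and Apom at chr17:35128997-35132050. All 4 genes of the chromosome 9 cluster fell in males at 5 mg/kg, and none of the 3 members in the chromosome 7 cluster was called, although Apoc4, which is not among the 10, fell there (-0.55, adjusted p 0.002553). Which exon each probe reads is not given in the sources used here.

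The 250 bases before the RefSeq start site (GRCm38.p6) are shown for 3 genes of the chromosome 9 cluster and for Apoe on chromosome 7, as examples of members that fell and of one that was not called. Sequences were given for 8 of the 10 genes, the others being Apoc1 and Apoc3. Each runs along the gene's own strand, and capitals mark a match to any of 4 motifs searched on both strands. These were the direct repeat that PPARα and HNF4α can bind (AGGTCA, any base, AGGTCA) with up to 3 mismatches, CAAAGTCCA (an HNF4α motif) with up to 1, the half-site AGGTCA and TATAAA. The Apoa1 window is chr9:46228380-46228629, Apoa4 chr9:46240594-46240843, Apoa5 chr9:46268383-46268632 and Apoe chr7:19699189-19699438 (minus strand). The RefSeq start lies 148 bases inside the GENCODE gene for Apoa4 and 50 bases inside for Apoa1.
Apoa1: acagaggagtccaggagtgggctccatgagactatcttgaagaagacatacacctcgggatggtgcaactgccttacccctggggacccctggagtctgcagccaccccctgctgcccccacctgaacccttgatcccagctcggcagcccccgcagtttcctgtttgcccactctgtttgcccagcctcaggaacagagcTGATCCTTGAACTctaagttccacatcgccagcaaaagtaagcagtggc
Apoa4: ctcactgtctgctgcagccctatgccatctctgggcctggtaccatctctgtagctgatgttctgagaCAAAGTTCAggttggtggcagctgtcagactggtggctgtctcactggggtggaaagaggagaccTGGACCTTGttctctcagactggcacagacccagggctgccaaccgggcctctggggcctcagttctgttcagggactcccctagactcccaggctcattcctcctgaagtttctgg
Apoa5: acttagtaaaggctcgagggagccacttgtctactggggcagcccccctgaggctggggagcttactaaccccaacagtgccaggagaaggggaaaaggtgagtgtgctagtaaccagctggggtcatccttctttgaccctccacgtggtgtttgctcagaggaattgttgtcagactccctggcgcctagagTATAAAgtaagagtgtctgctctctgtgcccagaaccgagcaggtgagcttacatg
Apoe: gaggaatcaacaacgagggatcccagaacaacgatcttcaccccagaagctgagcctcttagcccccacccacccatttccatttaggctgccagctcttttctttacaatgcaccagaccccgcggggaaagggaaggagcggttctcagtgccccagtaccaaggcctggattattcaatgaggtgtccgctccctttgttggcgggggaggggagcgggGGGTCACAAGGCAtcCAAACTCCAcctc
The direct repeat matched in 5 of the 8 members against 21.29% of 32851 windows of the same length, the HNF4α motif in 2 of 8 against 7.05%, the half-site in 1 of 8 against 14.02% and TATAAA in 3 of 8 against 12.37%. The repeat was found in Apoa1, which fell, and in Apoe, which was not called. The half-site lies inside the repeat of Apoc2, and these matches describe letters, not sites.

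Apoa4, a component of triglyceride-rich particles that both intestine and liver secrete, showed the widest change. Control males had 160.1, 184.2, 179.2, 285.2 and 243.3 CPM, males at 0.5 mg/kg 94.99, 56.87, 24.53, 38.69 and 39.2, and males at 5 mg/kg 50.61, 29.82, 26.09, 32.16 and 66.54. Every male at both doses lay below every control male. In males at 0.5 mg/kg 2.61% of genes were called, 0.733% lower, 1.27% lay lower without overlap and 2.34% higher, and 3 of 10 members were called (Apoa4, Apob and Apoa2), none overlapping. The log2 fold change was -2.05 (SE 0.335, adjusted p 8.261e-05) at 0.5 mg/kg and -2.36 (SE 0.339, adjusted p 9.769e-07) at 5 mg/kg, and the last is 5.13-fold lower. The step between these doses was small against its error (log2 fold change -0.31, 95% interval -0.95 to 0.33). Control females had 404.1, 867.8, 578.4, 450.2 and 535.9 CPM, females at 0.5 mg/kg 180.2, 185.9, 213.1 and 287.1, and females at 5 mg/kg 68.69, 39.94, 87.25, 24.28 and 88.87. None of the females at 0.5 or 5 mg/kg reached the lowest control, and at 0.5 mg/kg 0.830% of genes lay lower without overlap. At 5 mg/kg the fall was 9.18-fold (log2 fold change -3.20, SE 0.350, adjusted p 2.409e-09), and 5 mg/kg lay below 0.5 mg/kg (log2 fold change -1.81, adjusted p 0.0009912), where 1.38% of genes were called, 0.749% lower, and 1.60% lay lower without overlap, as did 2 members. At 0.5 mg/kg the female value of -1.39 missed the call (adjusted p 0.1141), although it was called without mouse 151 or without mouse 354, by DESeq2, without the filter on low counts and with only the groups compared. At 0.1 mg/kg males ranged from 81.15 to 279.7 CPM, 3 of 5 below every control, and females from 341.3 to 899.9. The log2 fold changes at this dose were -0.49 in males and 0.00 in females, with intervals of -1.12 to 0.14 and -0.63 to 0.63.

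Apoa1, the main protein of high-density lipoprotein, fell in both sexes at 5 mg/kg. Control males had 26110, 26570, 22480, 27640 and 30000 CPM and males at 5 mg/kg 15060, 11000, 13750, 17430 and 14730, with no overlap. This was 1.85-fold lower (log2 fold change -0.88, SE 0.188, adjusted p 0.0008206). Females spread more widely, from 13700 to 30540 CPM in controls (SD 6886) and from 8065 to 15920 CPM at 5 mg/kg, so the groups overlapped and 3 of 5 treated mice lay below every control. Their log2 fold change was -0.71 (SE 0.187, adjusted p 0.02038), and the call was lost without mouse 152 or without mouse 451 (adjusted p up to 0.1859), with only the groups compared and with library 355 kept. A second probe of the gene was also called lower in both sexes at 5 mg/kg. In males at 0.5 mg/kg the value was -0.46 (adjusted p 0.2592).

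Apoc3, which slows triglyceride clearance, fell in both sexes at 5 mg/kg. Control males held 3689, 3649, 4152, 4186 and 4116 CPM against 2919, 2146, 2784, 2874 and 3166 at 5 mg/kg. Control females held 5036, 6227, 5711, 4819 and 5506 CPM. The 4 females at 0.5 mg/kg had 4090, 4466, 4596 and 4345 CPM, whereas those given 5 mg/kg had 3624, 2848, 3654, 3344 and 3195. No treated mouse of these 3 groups overlapped its controls. Against controls at 5 mg/kg the fall was 1.43-fold in males (log2 fold change -0.51, SE 0.107, adjusted p 0.0006316) and 1.64-fold in females (-0.71, SE 0.107, adjusted p 4.914e-06). Females at 0.5 mg/kg were not called (-0.32, adjusted p 0.4847), although 5 mg/kg lay below 0.5 mg/kg in females (-0.39, adjusted p 0.08809), a call lost in 7 of 9 fits that left out a mouse. With library 355 kept, none of these Apoc3 calls was made.

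Apoa5, a regulator of triglyceride that circulates at low levels, fell in males. Control males had 1470, 1380, 1754, 2007 and 1662 CPM, and males at 5 mg/kg 1105, 514.7, 1048, 1335 and 1182. Mouse 402 was the lowest of these by far, yet the groups did not overlap with or without it. The log2 fold change was -0.67 (SE 0.177, adjusted p 0.00931), and it ranged from -0.78 to -0.51 as each mouse was left out, called each time. A second probe was called lower (-0.74) and a probe with fewer reads was not (-0.40, adjusted p 0.414). In females the value at 5 mg/kg was -0.24 (adjusted p 0.6992), called neither by edgeR nor by DESeq2. This differs from the study, which lists Apoa5 as differentially expressed in both sexes at this dose.

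Apob, the structural protein of very-low-density lipoprotein, fell in males at 2 doses. Control males had 558.7, 562.7, 586.8, 488.9 and 601.9 CPM, males at 0.5 mg/kg 459, 374.8, 440.8, 406.2 and 399.9, and males at 5 mg/kg 334.5, 440.2, 372.8, 315.1 and 360.2. Neither treated group overlapped the controls. At 5 mg/kg the gene was 1.54-fold lower (log2 fold change -0.62, SE 0.131, adjusted p 0.0008136), a call not made with library 355 kept. At 0.5 mg/kg the call was narrow (-0.43, adjusted p 0.09245), and it held in only 2 of 10 fits that left out a mouse, those without mouse 104 or mouse 301. The second probe gave -0.75 at 5 mg/kg, called, and -0.46 at 0.5 mg/kg, not called (adjusted p 0.1003). Female values were -0.02 at 0.5 mg/kg and -0.24 at 5 mg/kg, neither called.

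Apom, a lipocalin that carries sphingosine-1-phosphate in high-density lipoprotein, was read at the lowest level. Control males had 13.58, 25.56, 21.15, 30 and 37.94 CPM and males at 5 mg/kg 11.82, 7.721, 0, 7.526 and 8.661, all below the lowest control. The 0 was mouse 403, where 3 reads would be 0.245 CPM and that library's lowest peak of reads 2.115 CPM. The fitted log2 fold change was -1.84 (SE 0.480, adjusted p 0.008764), which was not called with only the groups compared or when scaled to hepatocyte markers (-1.0, adjusted p 0.1255), and -1.52 without mouse 403, called. Females at 5 mg/kg gave -0.57 (interval -1.48 to 0.34).

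Apoa2, the second protein of high-density lipoprotein, was the 1 member called higher. Males at 0.5 mg/kg had 4059, 2936, 3186, 3156 and 3040 CPM against 2477, 1937, 2194, 2438 and 2303 in controls, and no mouse overlapped. The log2 fold change was 0.53 (SE 0.128, adjusted p 0.01457), and 1.88% of genes were called higher there. Apoa2 stayed called without mouse 301 (0.44) and not with library 355 kept. Males at 5 mg/kg, with 2115, 2305, 2597, 2705 and 2596 CPM, were not called against controls (0.12, adjusted p 0.8498). They were called below 0.5 mg/kg (-0.41, adjusted p 0.09122), where 3.01% of genes were called, 1.84% lower, and 2.16% lay lower without overlap, as did 2 members (Apoa2 and Apom), but 8 of 10 fits that left out a mouse lost that call. Female values were -0.06 at 0.5 mg/kg and 0.09 at 5 mg/kg.

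None of the 3 genes of the chromosome 7 cluster was called at any dose. Apoe, the receptor ligand, had 11010, 10150, 12580, 11140 and 11630 CPM in control males and 11470, 8247, 12520, 11520 and 13050 in males given 5 mg/kg. These ranges overlapped, and the log2 fold change was 0.01 (interval -0.20 to 0.22). In females at 5 mg/kg it was 0.23 (interval 0.02 to 0.44, adjusted p 0.2577). Of the other probes of Apoe, 2 differed from the most counted one by at most 0.02 and 0.08 on the log2 scale, and the last had about 3.89 CPM. Apoc1, a small exchangeable apolipoprotein, had 6741, 3620, 7001, 7218 and 6474 CPM in males at 5 mg/kg against 6926 to 7513 in controls (-0.20, adjusted p 0.3437), and the low value was again mouse 402. Apoc2, the cofactor of lipoprotein lipase, gave 0.46 in males (interval -0.01 to 0.92) and -0.01 in females (interval -0.48 to 0.45) at 5 mg/kg. These intervals leave room for moderate changes in Apoc2.

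**Figure D1:**
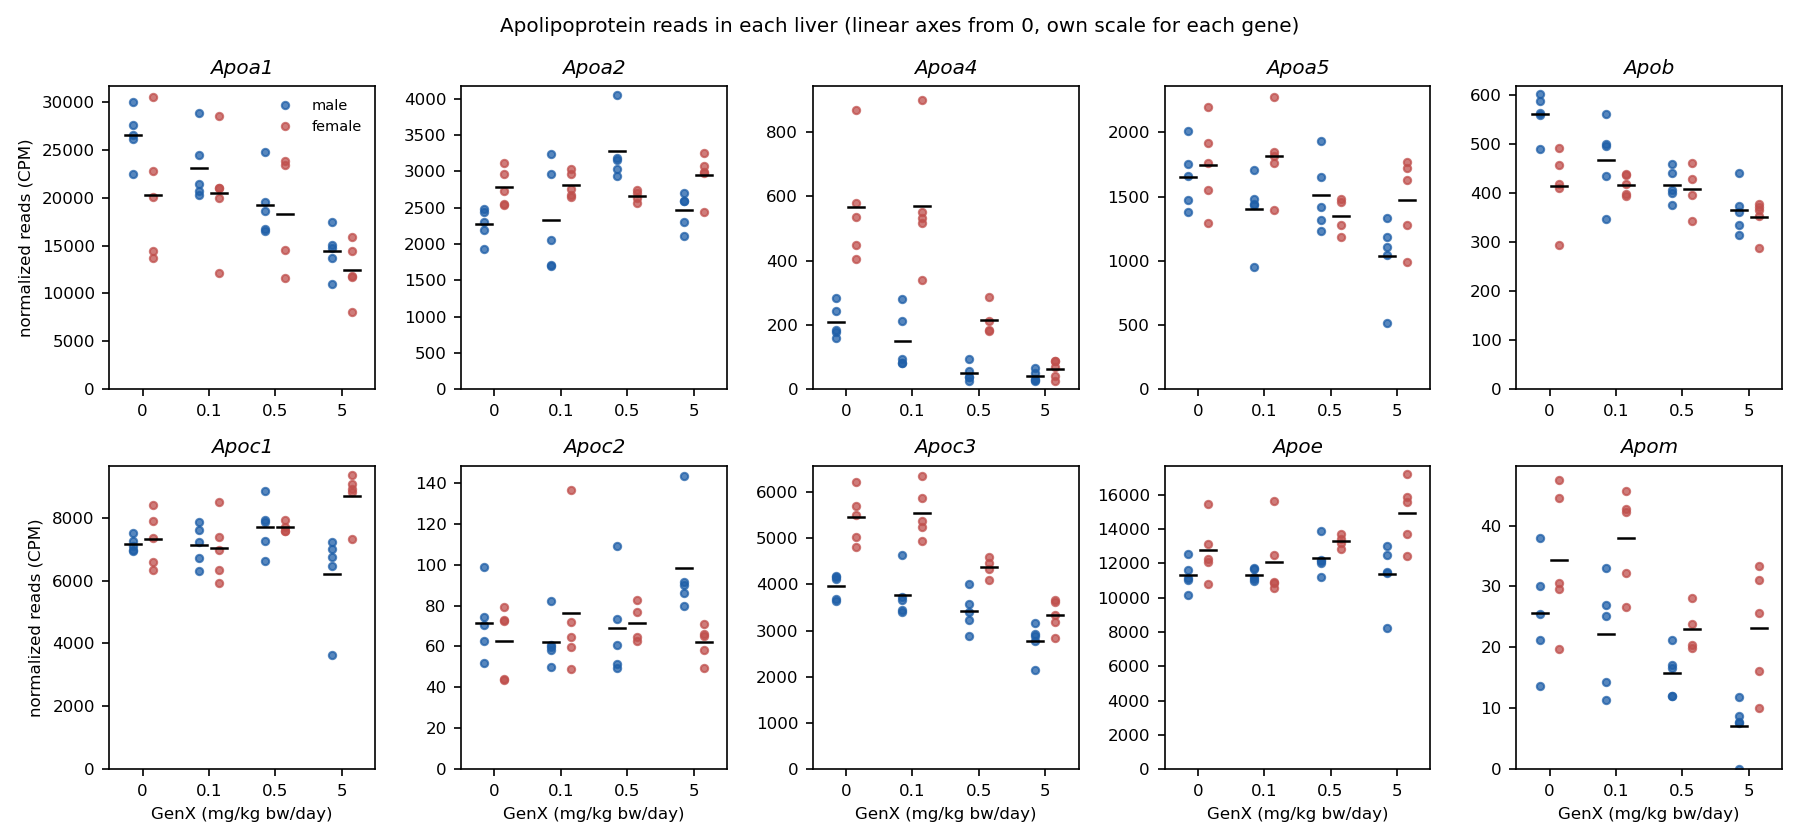
Reads of each gene's most counted probe (CPM, linear axis from 0 with its own scale per panel) in every liver by GenX dose, males in blue and females in red, with a bar at each group mean. Apoa4 falls to 24.28 to 88.87 CPM in females at 5 mg/kg from 404.1 CPM or more in controls, while Apoe stays between 8247 and 17250 CPM in all 39 livers.

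At 0.1 mg/kg, 0 of 10 members were called in either sex by edgeR, beside 0.0403% of all genes in males and 0% in females. In both sexes 0 members had an unadjusted p below 0.05, beside 12.87% of all genes in males and 9.596% in females. DESeq2 also called 0 members. In females at 0.5 mg/kg edgeR called 0 members, beside 0.201% of all genes. At an unadjusted p below 0.05 there were 2 members, beside 9.829% of all genes. DESeq2 called 1 member, beside 302 of 19309 probes. Over the 10 members the median log2 fold change at 5 mg/kg was -0.565 in males and -0.239 in females, and over all genes it was 0.111 and -0.008. The shift of 0.111 in males moved with the scaling, from 0.031 with DESeq2 size factors to 0.24 with library totals over all probes, and the 6 calls were made under both. Treated groups of 1 sex share their control mice, so the doses are not independent.

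**Figure D2:**
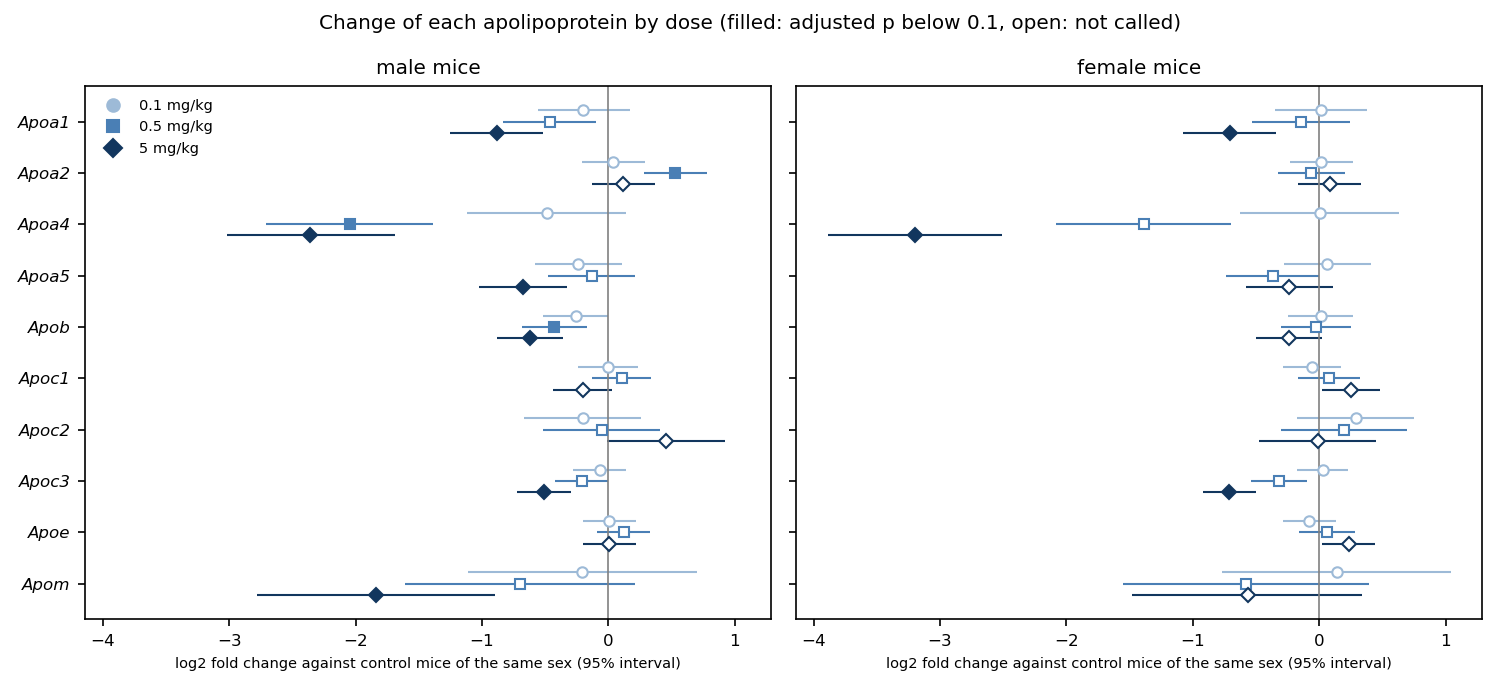
Log2 fold change of each gene against control mice of the same sex, with 95% intervals, at 0.1 (circle), 0.5 (square) and 5 mg/kg (diamond). Filled symbols were called at an adjusted p below 0.1. All 6 filled diamonds in males and all 3 in females lie left of 0.

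No sex difference in the response was called. EdgeR tests of the female effect minus the male effect called 0 of 10 members at each dose, beside 0%, 0.322% and 1.19% of all genes. At an unadjusted p below 0.05 there were 0, 2 and 2 members, beside 7.976%, 10.74% and 12.59% of all genes. DESeq2 called 0 members. At 5 mg/kg the difference was -0.84 for Apoa4 (interval -1.74 to 0.06), 1.27 for Apom (-0.02 to 2.56), 0.38 for Apob (0.02 to 0.74) and 0.45 for Apoc1 (0.12 to 0.78). That Apob, Apoa5 and Apom were called in males alone is thus not shown to be a difference between the sexes. The sexes did differ at baseline, where 3.89% of all genes were called, 2.37% higher and 1.52% lower in females, and 2.38% lay higher without overlap. Apoa4 was 2.70-fold higher in control females (log2 difference 1.43, adjusted p 0.005683) and Apoc3 1.38-fold higher (0.46, adjusted p 0.005805), both without overlap. Apoa2 was also higher without overlap and not called (0.29, adjusted p 0.2455). Apob was lower in control females (-0.44, adjusted p 0.06288), a call lost in 6 of 10 fits that left out a mouse. At 5 mg/kg the female and male ranges of Apoa4 overlapped, at 24.28 to 88.87 and 26.09 to 66.54 CPM.

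Hepatocyte markers moved with these genes. Of 9 hepatocyte genes with a probe, 6 fell in males and 5 in females at the highest dose (log2 fold change medians of -0.614 and -0.558). Their summed level was 21980 to 25850 CPM in control males and 14790 to 18470 CPM at 5 mg/kg, and 24430 to 28550 against 17550 to 19900 CPM in females. Trf, which encodes transferrin (-0.96 and -0.67 in males and females), Ahsg, a plasma carrier protein (-1.31 and -0.96), and Serpina1a, a protease inhibitor with close paralogs (-1.65 and -2.08), fell, while Alb, which encodes albumin, gave -0.07 and -0.22 and Ttr, a thyroid hormone carrier, -0.16 and -0.10, none of these 4 called. Fewer hepatocytes, less RNA per hepatocyte and a lower level of single marker genes cannot be told apart in bulk tissue, and none was tested. When libraries were scaled to the 9 markers, a choice made after seeing the data, Apoa4 was still lower at 5 mg/kg, by -1.60 in males (adjusted p 8.946e-05). Its female value was -2.57 (adjusted p 3.576e-08). Apoa1 then gave -0.12 and -0.04, Apoc3 0.24 and -0.06, Apob 0.16 and Apoa5 0.07 in males, and none of these was called. Apom gave -1.0 in males and also lost its call (adjusted p 0.1255), so that Apoa4 was the 1 member still called lower. Apoe, Apoc1, Apoc2 and Apoa2 were called higher in both sexes on that scale, which itself moved by 0.76 in males and 0.65 in females. On it 5276 of 17877 probes were called in males and 2512 in females, in either direction. The median over all probes was 0.867 in males and 0.589 in females. In males Apoe (0.753) and Apoc1 (0.538) lay below that median, Apoa2 (0.87) close to it and Apoc2 (1.214) above it. In females these members lay above it, at 0.648 to 0.899. Of markers of other liver cells, few were called. Kupffer cell markers summed to 162.9 to 287.4 CPM in control males and 194.5 to 335.1 at 5 mg/kg, with 1 of 12 called higher, 1 of 9 endothelial markers fell, 2 of 9 stellate markers rose and 1 fell, and 0 of 4 cholangiocyte markers were called. None of these was called in females. Of the 6 adipocyte markers only 1, Cidec, had enough reads to be tested. It read 0 CPM in control males and 2.769 to 11.7 CPM in males at 5 mg/kg, where it was called higher. Adipoq, Cfd, Plin1 and Retn were at 0 in those treated males. In females Cidec read between 0 and 2.471 CPM in controls and between 0 and 6.949 CPM at 5 mg/kg, and was not called. Cfd, Lep and Retn were at 0 in those treated females. The part of all these markers in the results was not tested.

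**Figure D3:**
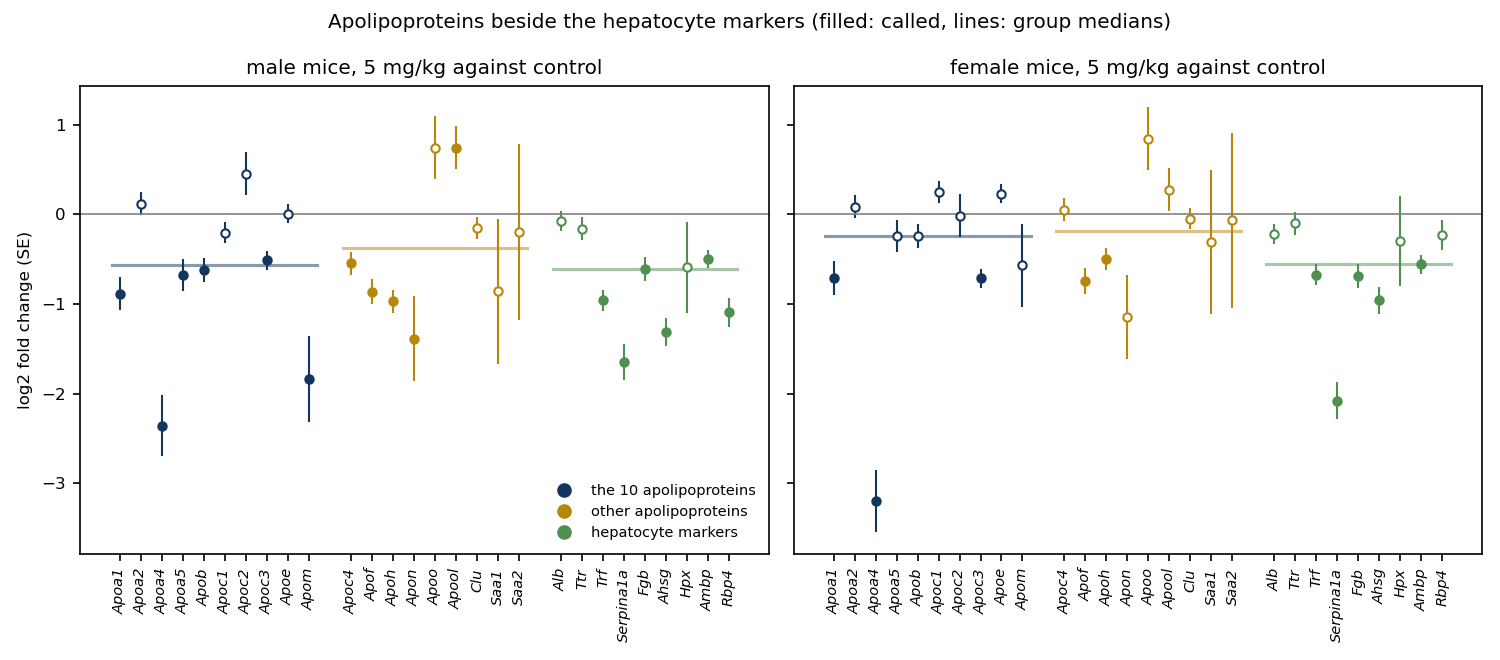
Log2 fold change (SE) at 5 mg/kg of the 10 apolipoproteins (blue), other apolipoproteins (gold, Saa4 not drawn because it was near 0 reads) and hepatocyte markers (green), with filled symbols for called genes and a line at each list's median. The hepatocyte median lies at -0.614 in males and -0.558 in females, and Apoa4 lies below every marker in both sexes.

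Of the 92 other genes of lipoprotein biology that were listed, 88 were tested. In males at 5 mg/kg 7 rose and 14 fell, which is 23.86% of them beside 9.35% of all genes. In females 2 rose and 6 fell, which is 9.091% beside 4.09%. Among 10 other apolipoproteins 4 fell and 1 rose in males, and 2 fell in females. Apof, an inhibitor of lipid transfer, fell by 0.86 on the log2 scale in males and by 0.74 in females, and Apoh, a phospholipid-binding plasma protein, by 0.97 and 0.50. Apoc4, a neighbor of Apoc2, gave -0.55 in males (called) and 0.05 in females. Apool, which belongs to the mitochondrial inner membrane, rose in males (0.74, adjusted p 0.0512).

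The assembly and secretion list split, with 3 of 15 higher and 3 lower in males. Mttp, which loads lipid onto Apob, rose in both sexes (0.49, adjusted p 0.008484, and 0.46, adjusted p 0.03001), opposite in sign to Apob. Creb3l3, a transcription factor of the endoplasmic reticulum that acts on Apoa4 among other genes, rose in males from 436.3 to 639.1 CPM (0.55, adjusted p 0.007695) while Apoa4 fell. Of the 4 genes for editing of the Apob messenger, A1cf rose in males (0.50). Lipc, hepatic lipase, fell in males (-1.27, adjusted p 2.513e-06) and was not called in females (-0.23), and for this gene the sex difference was called (1.04, adjusted p 0.04847). Among 15 receptor genes, Scarb1, which takes up lipid from high-density lipoprotein, fell in both sexes (-1.29 and -0.90), Lrp1, a receptor for Apoe-bearing remnants, fell in males (-1.03), and Cd36, a fatty acid carrier, rose in both (5.06 and 3.32). Hnf4a, which encodes the hepatocyte factor whose motif was searched, fell in both sexes (-0.80 and -0.56, adjusted p 0.0004966 and 0.04394), and Ppara was not called (-0.48 and 0.35). As a check of exposure, 9 of 11 PPARα response genes rose in males at 5 mg/kg and 7 of 11 in females.

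The reads of all 17 member probes made up 7.14% ± 0.123 (SD, n = 5) of each library in control males and 6.02% ± 0.914 at 5 mg/kg, where all 5 mice lay below every control. Mouse 402 had the lowest share of its group, at 4.416%. In males 4 of 5 mice lay below every control at 0.1 mg/kg (6.64% ± 0.47) and 4 of 5 at 0.5 mg/kg (6.48% ± 0.58), so the separation was not particular to 5 mg/kg. In females the share was 7.23% ± 1.31 in controls and 7.02% ± 0.764 at 5 mg/kg, and 0 of 5 mice lay below every control.

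The variation among mice of a group also linked some members. As the measure of likeness, Pearson's r of log2 CPM about group means was taken over 39 libraries and 2068 genes. The gene most like Apoa4 was its cluster neighbor Apoc3 (r = 0.69, or 0.72 without mouse 402), and the gene most like Apoa1 was Apoh (0.67). For Apoa5, Hagh and Apoc1 tied at 0.75, an order that rested on mouse 402, since without it they gave 0.59 and 0.57 and Apoh 0.62. Apoc3 was most like Apoc1 (0.71, or 0.62 without it), Apom was most like Apon (0.85) and Apob was most like Gcsh (0.58). The libraries share depth and tissue composition, so these values are descriptions.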

How the data were processed

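TempO-Seq read counts were measured in 40 mouse livers. The authors deposited raw counts of reads for each of 30146 probes, without normalization (per the labels, demultiplexed with bcl2fastq 2.17.1.14 and aligned with Bowtie, build mm10). The parameters of the alignment are not given in the sources used here. Library 355 was left out because its total lay more than 2 SD below the mean, as in the study. The counts were tested with edgeR 4.0.16 in R 4.3.3 (TMM scaling, default filter on low counts, quasi-likelihood F-test, 1 coefficient for each of 8 groups and no covariates). Two-sided p-values were corrected by the Benjamini-Hochberg method across 17877 probes (12418 genes), with a threshold of 0.1. Counts over genes use each gene's most counted probe where tested (12412 genes). Intervals are 95%. The study used DESeq2, and DESeq2 1.42.0 was run as an alternative, with other scalings, filters, sample sets and probes and with each mouse left out. Both tools were tested on simulated counts with known changes. There, edgeR made no calls in a comparison without change, whereas DESeq2 made false calls, mostly on probes with few reads, and unadjusted p-values of both tools were somewhat too small. The simulated counts used dispersions fitted by edgeR and did not model the lowest peak of reads, so they cannot rank the tools on these data. On the real counts DESeq2 called more probes in every comparison, such as 274 of 18877 against 6 of 17877 by edgeR in males at 0.1 mg/kg. Likeness used genes of at least 50 CPM on average. The genes named were all members, genes of listed pathways and markers, and the 3 genes most like each member called at 5 mg/kg. The members and lists were chosen with earlier results of these data known. No unused columns of samples remained, and sequences come from RefSeq.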

Additional observations from a re-analysis of the deposited data

Results flagged for a closer look

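Of 80 groups of 4 or 5 mice, 7 held a mouse that stood apart from the others by Dixon's criterion, and chance flags about 5% of groups. The highest were Apoa2 in male 301 at 0.5 mg/kg (4059 CPM, next 3186), Apoc2 in female 255 at 0.1 mg/kg (136.4 CPM, next 71.77), Apoc2 in male 405 at 5 mg/kg (143.4 CPM, next 91.52) and Apoc3 in male 201 at 0.1 mg/kg (4642 CPM, next 3737). The lowest were Apob in female 454 (287.4 CPM, next 352.4), Apoc1 in female 452 (7316 CPM, next 8830) and Apoc1 in male 402 (3620 CPM, next 6474), all at 5 mg/kg. Without mouse 402 the same number of members, 6, was called in males at 5 mg/kg.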

How the results depend on the processing

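In males at 5 mg/kg 6 members were called in each of 10 fits that left out a mouse. Apob and Apoc3 lost their calls there with all 40 libraries, and Apom with only the groups compared. These settings called 834 of 17247 and 1680 of 13449 probes. When that comparison was scaled to the hepatocyte markers, 1 member was called lower and 4 higher, beside 5276 of 17877 probes. Leaving out a mouse gave 0 to 1 call in females at 0.5 mg/kg, 0 to 2 in males at 5 against 0.5 mg/kg and 1 to 2 in females at 5 against 0.5 mg/kg, and the cause was not tested. With all 40 libraries, 1 member was called in males at 0.5 mg/kg, 1 in females at 5 mg/kg and 1 between control sexes. At 5 against 0.5 mg/kg it was 0 in males and 1 in females. Of the 17247 probes tested with these libraries, 91, 238, 230, 143 and 148 were called, in the same order. In females at 0.5 mg/kg, 1 was called by DESeq2, 1 without the filter and 1 with only the groups compared. Over all probes these settings called 302 of 19309, 108 of 23058 and 22 of 13528. Without the filter 1 sex difference was called at 0.5 and 1 at 5 mg/kg, beside 163 and 304 of 23058 probes. For males at 5 against 0.5 mg/kg the count was 3 by DESeq2, 0 by library totals and 5 without the filter. Over all probes these settings called 813 of 17852, 541 of 17877 and 553 of 23058. The count was 2 with only the groups compared, beside 794 of 13725 probes, and 2 with probes summed, beside 501 of 12515 genes. For females it was 1 with DESeq2 size factors, 1 with library totals and 1 with only the groups compared. Over all probes these called 218 of 17877, 216 of 17877 and 148 of 13382. Scaled to the hepatocyte markers, a choice made after seeing the data, 5 were called in females at 5 mg/kg, 4 of them higher. This scaling called 1 between control sexes and 5, again 4 of them higher, in females at 5 against 0.5 mg/kg. Of 17877 probes, 2512, 453 and 790 were called in these comparisons. On that scale, among values called on either scale, the sign turned for Apoa5 (0.07), Apob (0.157), Apoc1 (0.538) and Apoc3 (0.244) in males and Apoc2 (0.648) in females at 5 mg/kg, for Apoa2 in males (0.001) and for Apoc3 in females (0.031) at 5 against 0.5 mg/kg. Values called on neither scale turned too, among them Apoa5 (0.40), Apob (0.378) and Apom (0.075) in females at 5 mg/kg and Apoa4 (0.107), Apob (0.237), Apoc1 (0.085), Apoc3 (0.11) and Apoe (0.283) in males at 5 against 0.5 mg/kg. With DESeq2 size factors, 3 genes of the pathway lists were called for the sex difference at 5 mg/kg and 2 between control sexes. Beside them stood 229 and 610 of 17877 probes. By the estimate from the lowest peak, Apom, Apoc2 and Apoa4 had the fewest captured molecules, and the effect of this on precision was not tested.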

Other observations

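The library of mouse 355, a female at 0.5 mg/kg left out for its depth, had its lowest peak at 74.8 reads. Taking that peak as 1 captured molecule gives about 89740 molecules. In reads per 1e6 of its total, 7 of the 10 members lay below the control females and the other females at 0.5 mg/kg. Apoa2 was at 294.5 (other females at 0.5 mg/kg from 2652), Apoc3 at 526.1 (from 4273), Apoe at 2403 (from 12630) and Apoc1 at 2438 (from 7454). Apob was at 76.73 (from 353.9), Apoa4 at 116.8 (from 189.1) and Apom at 11.77 (from 20.81). Apoa4 rested on 784 reads and Apom on 79, beside that lowest peak of 74.8 reads, so these values are imprecise. Apoa1 at 17650, Apoa5 at 1921 and Apoc2 at 64.66 lay within the range of the control females.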
